A study of Mus musculus with 2 samples.

Results

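The 10 immediate early genes described here are Fos, Fosb, Jun, Junb, Jund, Egr1, Atf3, Ier2, Ier3 and Dusp1. They were chosen by symbol from the 31055 features that both libraries list. Immediate early genes are transcribed within minutes of a signal, from factors already present in the cell, and their RNAs are short-lived. FOS and JUN proteins pair to form the transcription factor AP-1, ATF3 is a related leucine zipper factor, EGR1 is a zinc finger factor, and DUSP1 removes phosphate from the MAP kinases that started the response. In brain tissue these genes are known as markers of neuronal activity, growth factor signalling and cell stress, and enzymatic digestion of fresh tissue is known to raise them.

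The tissue was medulloblastoma of mice with the genotype Math1-Cre;SmoM2fl/fl, in which Cre of the granule neuron lineage turns on SmoM2, a constantly active Smoothened of the SHH pathway. 1 library was made after FLASH proton irradiation, which gives the dose at an ultra-high rate, and 1 after standard proton irradiation. The sample labels give 5 Gy for both libraries and the design text gives 10 Gy, a conflict that the files do not settle, and neither the interval before collection nor how many mice were used is stated in what was used here. Both tumours were perfused with PBS and EDTA, digested with collagenase-II and DNase and passed through a mesh of 100 μm. No library without digestion and none without irradiation was analysed here, and the part of digestion in these levels was not tested. With 1 library per group there is no replicate and no test of FLASH against standard. Each ratio compares these 2 libraries, and its interval (95%) covers counting error only.

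Barcodes with at least 500 genes and at most 10% mitochondrial UMIs numbered 10366 in the FLASH library and 8461 in the standard library. In them the 10 genes had 125658 UMIs, 0.215% of all, in the FLASH library and 119036 UMIs, 0.237% of all, in the standard library. After removal of likely doublets, 9506 FLASH cells with a median of 5212 UMIs and 7888 standard cells with a median of 5571 UMIs were sorted into classes by clustering that left out immediate early genes, so none of the 10 genes defined a class. The names end in -like because no label gives a cell type. The tumour lineage (7710 FLASH cells, 6364 standard cells) held granule neuron progenitor-like cells and differentiating granule neuron-like cells. In them Atoh1, the progenitor factor, had 62.3 and 66.4 counts per 1000000 UMIs (CPM) in the FLASH and standard libraries, and Neurod1, a factor of differentiating neurons, had 457 and 519 CPM. The libraries shared 21 barcode sequences among the kept cells.

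The regions around the start sites of 8 of the 10 genes, all but Egr1 and Ier2, were matched by symbol in RefSeq sequences of build GRCm38.p6. The windows run from 250 bases before to 50 bases after the start. Windows of Fos, Jun, Atf3 and Dusp1 are shown because these genes stand for the FOS side, the JUN side, the stress-induced factor and the feedback phosphatase, and because their levels parted between cell classes. Each reads 5′ to 3′ on the gene's own strand, and capitals mark the letters searched for. The windows lie at chr12:85473640-85473939 on the plus strand (Fos), chr4:95052173-95052472 on the minus strand (Jun), chr1:191183284-191183583 on the minus strand (Atf3) and chr17:26508423-26508722 on the minus strand (Dusp1).
Fos: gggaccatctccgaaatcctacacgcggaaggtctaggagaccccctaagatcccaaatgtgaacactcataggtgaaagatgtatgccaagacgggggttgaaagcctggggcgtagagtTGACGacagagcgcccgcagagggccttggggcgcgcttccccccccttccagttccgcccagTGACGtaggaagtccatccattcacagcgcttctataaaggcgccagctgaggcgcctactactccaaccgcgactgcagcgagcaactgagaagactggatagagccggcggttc
Jun: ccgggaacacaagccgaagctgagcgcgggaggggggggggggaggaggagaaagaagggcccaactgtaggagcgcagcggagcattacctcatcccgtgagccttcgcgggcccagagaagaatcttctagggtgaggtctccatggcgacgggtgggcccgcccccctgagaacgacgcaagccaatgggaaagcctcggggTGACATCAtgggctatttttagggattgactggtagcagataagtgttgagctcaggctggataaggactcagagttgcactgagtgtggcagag
Atf3: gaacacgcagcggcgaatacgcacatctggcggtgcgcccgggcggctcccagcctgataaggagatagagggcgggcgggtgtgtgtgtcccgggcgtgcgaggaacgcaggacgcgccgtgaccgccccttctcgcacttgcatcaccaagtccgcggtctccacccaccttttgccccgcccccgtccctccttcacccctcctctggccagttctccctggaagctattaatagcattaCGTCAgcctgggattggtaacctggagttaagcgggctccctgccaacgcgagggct
Dusp1: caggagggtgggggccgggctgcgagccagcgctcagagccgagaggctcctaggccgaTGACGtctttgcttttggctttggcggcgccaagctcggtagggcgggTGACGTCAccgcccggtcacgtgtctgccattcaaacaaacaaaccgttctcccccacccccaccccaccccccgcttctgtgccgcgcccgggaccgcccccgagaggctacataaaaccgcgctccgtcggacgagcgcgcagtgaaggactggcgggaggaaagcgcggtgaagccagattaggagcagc
Both strands were searched. The core TGACG of the cyclic AMP response element was in 5 of the 8 windows (Atf3, Dusp1, Fos, Fosb and Junb), against 20.8% of all 32851 windows. Fos held it 129 and 66 bases before its start. The full element TGACGTCA, which contains that core, was in the Dusp1 window alone, 143 bases before the start, against 1.79% of all windows. Jun held TGACATCA 45 bases before its start, a form found in 3.62% of all windows. The AP-1 letters TGACTCA or TGAGTCA were in 0 of the 8 windows against 5.20% of all, and the serum response element, searched by its usual form, was in 0 of the 8 against 1.63% of all. Letters more than 250 bases before a start, and all those of Egr1 and Ier2, were not searched, so these genes may hold such elements elsewhere. A match here is a description of letters, not a site of binding, and the window of Jund belongs to a RefSeq start upstream of the GENCODE gene. The Atf3 and Dusp1 windows belong to RefSeq starts (191183333 and 26508472) inside longer GENCODE spans whose starts lie at 191218039 and 26562128, so for these 3 genes the letters before the GENCODE start were not searched.

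In the GENCODE M21 annotation of GRCm38 the genes lie on chromosomes 1 (Atf3), 4 (Jun), 7 (Fosb), 8 (Junb, Jund and Ier2), 12 (Fos), 17 (Ier3 and Dusp1) and 18 (Egr1). Fos spans 85473890 to 85477273 on the plus strand of chromosome 12. Jun spans 95049034 to 95052222 on the minus strand of chromosome 4 and overlaps Junos on the other strand, Junb overlaps Prdx2, Jund overlaps Gm11175, the long annotated span of Atf3 overlaps Gm24748, and that of Dusp1 overlaps Ergic1 and Gm8225, each on the other strand. Dusp1 also overlaps AC122252.1 and AC122252.4 on its own strand. Whether the counting used strand is not stated in what was used here, and the part of reads of these overlapping genes in the counts was not tested. Strand would part the genes on the other strand but not the same-strand partners of Dusp1.

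The FOS genes set the myeloid cells, meaning here macrophage-, microglia- and monocyte-like cells together, apart from the tumour. Fos had 1159 CPM in the 234 FLASH and 1229.9 CPM in the 223 standard myeloid cells. In tumour-lineage cells it had 137 CPM in the FLASH library and 153 CPM in the standard library. The log2 ratio of the myeloid cells over the tumour lineage was 3.08 in the FLASH library and 3.01 in the standard library. Fosb, its close relative, parted the classes less, with 165 and 196 CPM in FLASH and standard myeloid cells against 78.5 and 93.9 CPM in FLASH and standard tumour cells. Its log2 ratios were 1.08 and 1.06.

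Among the JUN genes the order of the classes was not shared. Junb had 1380.2 and 1337 CPM in FLASH and standard myeloid cells, and 52.3 and 66.6 CPM in FLASH and standard tumour cells. Jun had 829 and 962 CPM in the myeloid cells against 604 and 685 CPM in the tumour lineage, log2 ratios of 0.46 in the FLASH library and 0.49 in the standard library. These ratios were 0.13 and 0.08 in macrophage-like cells alone, and 0.96 and 1.04 in microglia-like cells. Jund, known for a steadier level than its relatives, was the 1 gene of the 10 that was lower in the myeloid cells, with 372 and 391.7 CPM there against 654 and 701 CPM in the tumour lineage. That direction rests on the scaling. The median gene was lower in the myeloid cells by 0.79 and 0.78 (log2) in the FLASH and standard libraries, and relative to it the Jund ratio was -0.02 and -0.06. From CPM, the Jund ratio was -1.05 and -1.34 in macrophage-like cells and -0.26 and -0.24 in microglia-like cells.

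Genes of the stress and feedback roles were far lower in the tumour lineage than in myeloid cells. Atf3 had 424 and 539 CPM in FLASH and standard myeloid cells, against 7.23 and 6.04 CPM in FLASH and standard tumour cells. Ier3, an early response protein tied to cell survival, had 740.1 and 778 CPM against 11.2 and 14.0 CPM in FLASH and standard cells. Dusp1 had 412 and 478 CPM against 38.2 and 43.6 CPM. Egr1, a zinc finger factor, had 464 and 604 CPM against 172 and 195 CPM, and Ier2 had 438 and 423 CPM against 187 and 212.5 CPM. At least 2-fold higher in both libraries were 7 of the 10 genes, the exceptions being Jun, Jund and Ier2, while 14.2% of 12500 genes passed the same rule. The median ratio of the 10 was 2.25 in the FLASH library and 2.32 in the standard library. Relative to the median gene, 9 of the 10 passed and 22.1% of genes did.

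The macrophage markers summed to 1.01 and 1.10 CPM in FLASH and standard tumour cells, against 1729.5 and 1554 CPM in FLASH and standard myeloid cells, and 1 of the 8 was at 0 in the tumour cells of each library. The microglia markers summed to 18.6 and 18.4 CPM against 4792 and 5499 CPM. The monocyte markers, some of which tumour cells also hold, summed to 83.4 and 78.9 CPM against 1114.1 and 672 CPM. The neutrophil markers summed to 1.57 and 1.30 CPM in FLASH and standard tumour cells.

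**Figure D1:**
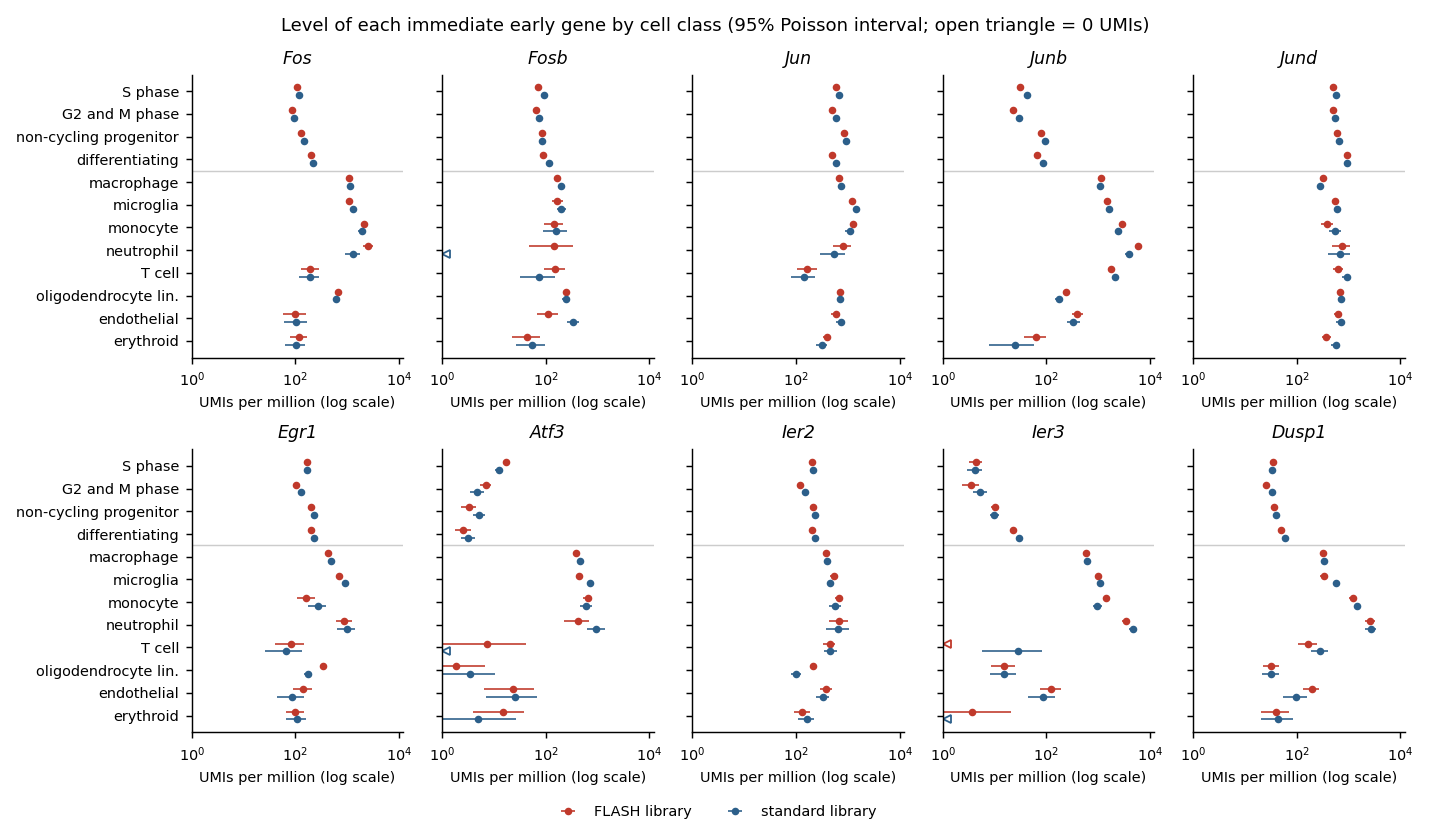
CPM (log axis) of each gene in 12 cell classes, FLASH above standard in each row, with 95% Poisson intervals, and the 4 tumour states above the grey line. Atf3, Ier3, Junb and Dusp1 sit far to the right in macrophage-, microglia-, monocyte- and neutrophil-like cells, while Jund spans a narrower range than these 4.

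Within the myeloid cells the genes parted further. Monocyte-like cells (44 FLASH, 21 standard) had 2885 and 2433 CPM of Junb in the FLASH and standard libraries, 2058 and 1897 CPM of Fos, and 1189 and 1474 CPM of Dusp1. Of the 143 standard UMIs of Dusp1, 70 came from 5 cells of a cluster led by Ace and Treml4 (4152 CPM, against 1738 CPM in its 9 FLASH cells), and in the other cells of the class Dusp1 had 1079 CPM in 35 FLASH and 911 CPM in 16 standard cells. Macrophage-like cells (145 FLASH, 142 standard) had 1152 and 1089 CPM of Junb, 1057 and 1134.5 CPM of Fos and 327 and 337 CPM of Dusp1. Egr1 ran the other way, with 163 and 268 CPM in monocyte-like cells and 698 and 917 CPM in microglia-like cells (45 FLASH, 60 standard). In both libraries the counting intervals of these Egr1 levels did not overlap. Neutrophil-like cells, with only 20 FLASH and 14 standard cells, had the highest Junb (5926 and 3929.9 CPM), Ier3 (3403 and 4723 CPM) and Dusp1 (2611 and 2683 CPM) of the named classes. T cell-like cells (25 FLASH, 19 standard) had 1785 and 2132 CPM of Junb but 165 and 141 CPM of Jun, and Atf3 had 1 UMI in the FLASH and 0 in the standard cells.

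Endothelial-like cells (50 FLASH, 33 standard) were at least 2-fold above the tumour lineage in both libraries for 4 of the 10 genes, Junb, Ier3, Atf3 and Dusp1, against 15.1% of genes. Junb had 397 and 332 CPM there in the FLASH and standard libraries, and Atf3 rested on 4 UMIs in each. Oligodendrocyte lineage-like cells passed for 3 of the 10, Fos, Fosb and Junb, against 14.1% of genes. Fos had 662 and 601 CPM in them, while Atf3 had 2 and 3 UMIs in all.

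Within the oligodendrocyte lineage the level differed between sub-clusters. Split again, a choice made after seeing the data, the lineage gave a sub-cluster with Pdgfra and Cspg4, genes of precursor cells, among its leading genes, with 79 FLASH and 37 standard cells. Fos had 1369.6 and 1854 CPM there in the FLASH and standard libraries, Egr1 had 769 and 609 CPM, and Fosb had 559 and 806 CPM. In the sub-cluster led by the myelin gene Mal (12 FLASH cells, 17 standard cells) Fos had 33.8 and 43.6 CPM, and Egr1 had 0 UMIs in both libraries. Another sub-cluster (24 FLASH cells, 11 standard cells) was led by Cre, Cenpf, Draxin, Barhl1 and Stmn2, none of them among the markers used for this lineage, and had 67.5 and 189.8 CPM of Fos. Precursor-like Fos was above the macrophage-like level in both libraries.

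Free RNA puts UMIs into cells that do not make them, so shares of cells were set beside those of erythroid-like cells. That erythroid-like cells hold these RNAs as free RNA alone was not tested. Erythroid markers took 344910 CPM in FLASH and 405390 CPM in standard erythroid-like cells. Thinning therefore left fewer UMIs for other genes there than in tumour cells, and shares without these markers were not taken. With every cell thinned to 2000 UMIs, Fos was seen in 16.4% of 7008 FLASH and 17.6% of 5699 standard tumour cells, leaving out 702 and 665 shallower cells, and unthinned in 28.9% and 32.8%. In erythroid-like cells, of median depth 6920 and 6970 UMIs against 5606 and 6114 in the tumour, it was seen in 14.3% of 35 FLASH cells [4.81, 30.3] and 3.45% of 29 standard cells [0.0873, 17.8]. Jun was seen in 60.3% and 63.9% of FLASH and standard tumour cells, against 48.6% [31.4, 66.0] and 41.4% [23.5, 61.1] of erythroid-like cells. The shares of Fos over the whole tumour lineage lay inside the erythroid-like intervals in both libraries, so as shares they cannot be told apart from the erythroid-like ones. What part of them is free RNA was not tested. In differentiating cells Fos was seen in 19.9% of FLASH cells [18.4, 21.5], inside the erythroid-like interval, and in 21.3% of standard cells [19.6, 23.0], above it. As a level, Fos had 117 CPM in FLASH [80.3, 166] and 102 CPM in standard [63.1, 156] erythroid-like cells. These totals include the erythroid markers, and the median gene was lower than in the tumour lineage by 0.64 and 0.71 (log2). Relative to the median gene, Jun ratios over the tumour lineage were 0.04 and -0.39, and Ier2 ratios 0.16 and 0.33. On that scale 0 of the 10 genes were 2-fold higher in both libraries (5.76% of genes), and 0 were 2-fold lower (1.38%). Myeloid shares stood well clear of the erythroid-like ones, with Fos in 78.5% and 73.4% and Atf3 in 46.6% and 43.8%. These are shares of the 219 FLASH and 203 standard myeloid cells deep enough (medians of 7144.5 and 6985 UMIs before thinning). After thinning, 0 erythroid-like cells had Atf3 in either library. These 0 counts allow shares up to 10.0% and 11.9%.

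More of the 10 genes were detected per cell in myeloid than in tumour cells. Each gene but Jund was also seen in a larger share of myeloid cells, and joint detection beyond these shares was not tested. After thinning, at least 5 of the 10 genes had a UMI in 69.0% of FLASH and 74.9% of standard myeloid cells, in 7.75% and 9.37% of tumour cells, and in 2.86% and 0% of erythroid-like cells. At least 3 of the 10 were seen in 37.4% of FLASH and 42.2% of standard tumour cells. Within the tumour lineage, Fosb was seen in 27.5% and 26.8% of FLASH and standard cells with a Fos UMI, and in 7.67% and 9.86% of cells without one. For Egr1 these shares were 43.9% and 47.3% with Fos and 19.1% and 21.5% without. Jund hardly followed Jun, with 69.9% and 70.3% of cells that had Jun and 63.8% and 68.2% of cells that did not.

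**Figure D2:**
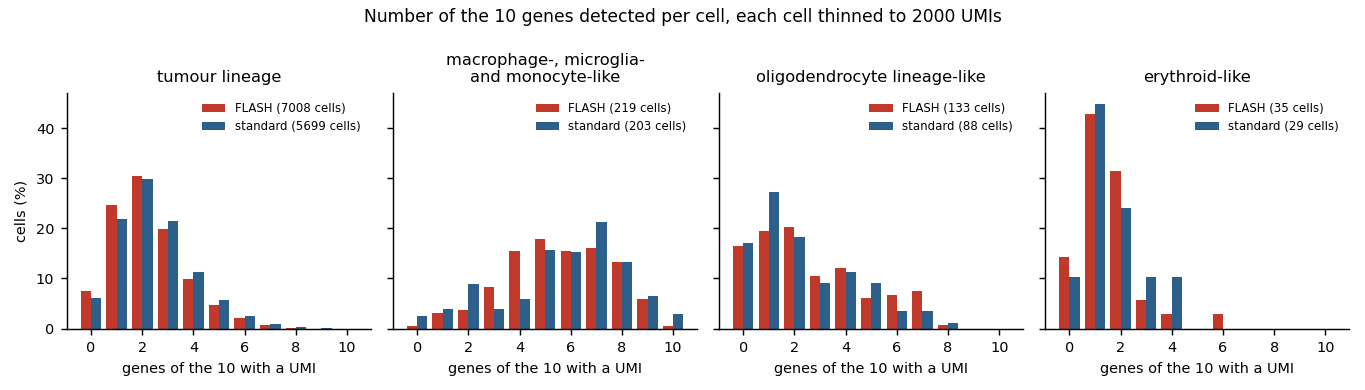
Percentage of cells in which 0 to 10 of the genes had a UMI, with each cell thinned to 2000 UMIs, FLASH bars left of standard bars. Tumour cells gather at 1 to 3 genes, erythroid-like cells at 0 to 2 and macrophage-, microglia- and monocyte-like cells at 4 to 8.

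Between tumour states the median of the 10 genes was higher in differentiating than in progenitor-like cells in both libraries. The median log2 ratios were 0.40 in the FLASH and 0.52 in the standard library, against 0.026 and 0.044 over all genes. Most differences of single genes were small. At least 2-fold higher in both libraries was 1 of the 10, Ier3, against 8.33% of 11960 genes. At least 2-fold lower was 1, Atf3, against 9.55%. Jund was higher in differentiating than in progenitor-like cells, with 933 and 929 CPM against 535 and 592 CPM in the FLASH and standard libraries. Fos followed, with 204 and 222 CPM against 109 and 120 CPM, and so did Ier3, with 22.7 and 29.3 CPM against 6.25 and 6.67 CPM. Jun went the other way, with 498 and 577 CPM in differentiating cells and 649 and 737 CPM in progenitor-like cells, log2 ratios of -0.38 and -0.35. Atf3 was lower too, at 2.59 and 3.16 CPM against 9.21 and 7.41 CPM.

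Along the cell cycle, cells in G2 and M phase (1129 FLASH, 973 standard) had the lowest Fos, Junb, Egr1 and Ier2 of the 4 states in both libraries. Egr1 had 104 and 126 CPM there against 201 and 231 CPM in non-cycling progenitor-like cells (2027 FLASH, 1576 standard), and Junb had 22.9 and 29.4 CPM against 78.1 and 92.1 CPM. Jun was highest in the non-cycling progenitor-like cells, at 821 and 917 CPM. Atf3 peaked in S phase, at 17.1 and 12.6 CPM, and mostly in the cluster led by histone genes, where 164 FLASH and 89 standard UMIs gave 20.7 and 15.5 CPM.

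Single clusters parted further, as the map of tumour clusters shows. Cluster 5, led by Grin2b and Neurod1, markers of differentiating neurons (635 FLASH, 570 standard), had 513 and 515 CPM of Fos, 409 and 452 CPM of Egr1, 347 and 417 CPM of Ier2 and 57.2 and 79.0 CPM of Ier3. Cluster 1, led by Pde1c, had 7.91 and 9.87 CPM of Ier3. Among progenitor-like cells, cluster 0, led by Hes1, had 943 and 1073 CPM of Jun and 102 and 110 CPM of Junb, and cluster 2, led by Mylpf and other muscle-type genes, had 674 and 712 CPM of Jun. Cluster 12, in G2 and M phase, had 74.4 and 70.7 CPM of Egr1. A set of 10 cells led by genes of mature granule neurons such as Cbln3 and Calb2 had 1252 and 4138 CPM of Fos, from 39 FLASH and 49 standard UMIs.

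Cluster 13, led by the noncoding RNA Miat, and cluster 17, led by Mki67 and Knl1, had high Fosb without high Fos. Fos had 100 and 106 CPM in FLASH and standard cells of cluster 13, and 64.6 and 127 CPM in those of cluster 17. In clusters 13 (227 FLASH cells, 373 standard cells) and 17 (102 FLASH cells, 132 standard cells) Fosb had 160.1 and 211 CPM in cluster 13 and 249 and 365 CPM in cluster 17, in FLASH and standard cells, against 78.5 and 93.9 CPM in the whole tumour lineage. Egr1 reached 331 and 388 CPM in cluster 13. High Fosb and Egr1 were shared with cluster 5, where Fosb had 198 and 202 CPM and Egr1 had 409 and 452 CPM. Junb stayed low in cluster 17, at 19.4 and 15.3 CPM from 6 FLASH and 7 standard UMIs. Both clusters were shallow, with medians of 1806.5 and 3140.5 UMIs, and the part of depth in these levels was not tested.

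**Figure D3:**
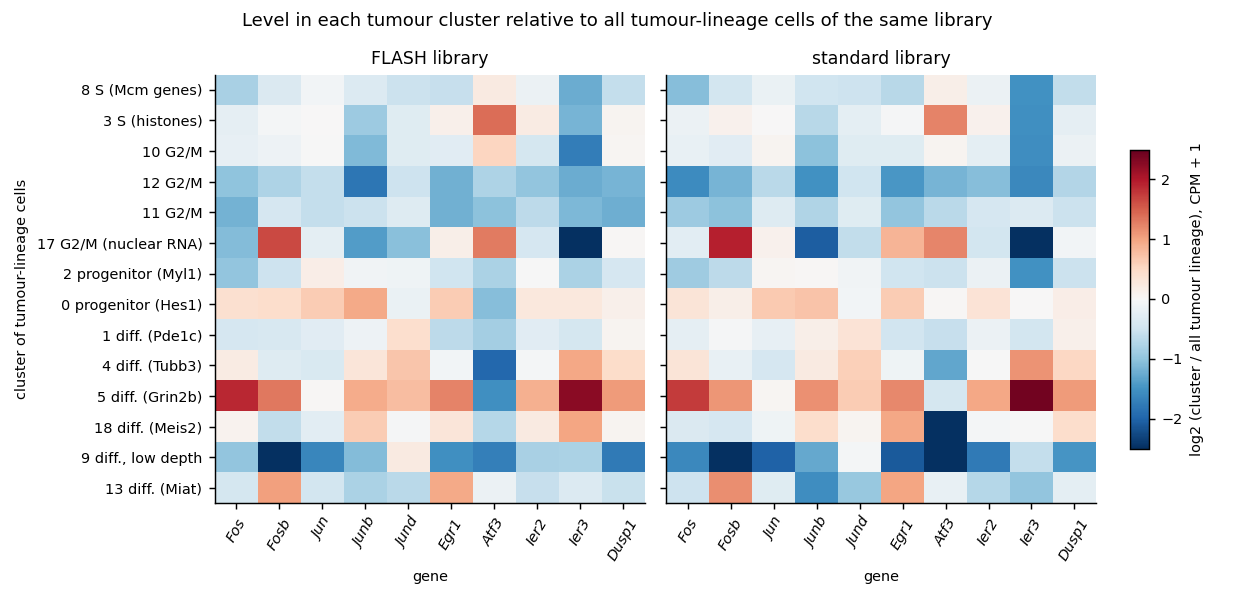
Level of each gene in 14 clusters of tumour-lineage cells over its level in all tumour-lineage cells of the same library, as log2 of CPM + 1, with FLASH left and standard right (red higher, blue lower). The Grin2b-led cluster 5 is red for Fos, Fosb, Egr1 and Ier3 in both libraries, cluster 12 is blue throughout, and clusters 13 and 17 are red for Fosb.

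Between the libraries the tumour lineage had slightly less of these RNAs after FLASH than after standard irradiation. 9 of the 10 genes had a ratio below 0, against 48.5% of 11960 genes, and the median log2 ratio was -0.18, against 0.0034 over all genes. Jun had 604 CPM in FLASH and 685 CPM in standard cells, a log2 ratio of -0.18 [-0.21, -0.16]. Fos had 137 and 153 CPM (-0.15 [-0.20, -0.10]), Egr1 had 172 and 195 CPM (-0.18 [-0.23, -0.14]), and Fosb had 78.5 and 93.9 CPM (-0.26 [-0.32, -0.19]). Each of these intervals lay below 0. Past 0.32 on the log2 scale, the size used here to count genes as lower or higher, were 2 of the 10 genes on the lower side, Junb (-0.35 [-0.43, -0.27]) and Ier3 (-0.33 [-0.50, -0.15]), against 2.73% of genes, and 0 on the higher side, against 2.07%. Atf3 was the 1 gene above 0, at 0.26 [0.02, 0.51] from 328 and 241 UMIs. Of these, 164 FLASH and 89 standard UMIs came from the S phase cluster led by histone genes (926 FLASH, 602 standard cells). The Atf3 ratio without that cluster was not taken.

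The direction was shared by progenitor-like cells, where 9 of 10 were below 0 (46.6% of genes) with a median of -0.15 and 0 were past 0.32 lower (2.8% of genes). Counts in smaller classes cover the members with at least 100 UMIs there. In differentiating granule neuron-like cells 8 of 9 were below 0 (50.7% of genes), and the median over all 10 was -0.22. There 3 were past 0.32 lower, Fosb (-0.38), Junb (-0.37) and Ier3 (-0.36), against 3.13% of genes, and Jund had a ratio of 0.01 [-0.03, 0.04].

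In S phase 7 of 9 were below 0 (46.1% of genes). Past 0.32 lower were 2, Fosb (-0.34) and Junb (-0.44), against 3.43% of genes, and 1 was past it higher, Atf3 (0.43 [0.09, 0.79]), against 3.59%. In G2 and M phase 8 of 9 were below 0 (48.1% of genes). Past 0.32 lower were 2, Junb (-0.36 [-0.64, -0.09]) and Dusp1 (-0.33 [-0.59, -0.07]), against 3.99% of genes. Past it higher was 1, Atf3 (0.53 [-0.06, 1.16]), against 3.46%, and its interval spans 0. Ier3, under 100 UMIs in G2 and M phase, had 31 FLASH and 43 standard UMIs (-0.57 [-1.29, 0.12]). Over 14 tumour clusters with at least 20 cells in each library, Jun was lower after FLASH in 13, Junb, Egr1, Ier2 and Dusp1 in 12 each, Fosb and Jund in 11, Fos in 10, Ier3 in 8 and Atf3 in 6. Over all genes with at least 100 UMIs in the tumour lineage the median was 7 of the 14 clusters.

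The ratios were not alike at all depths. Among the 702 FLASH and 665 standard tumour cells under 2000 UMIs 5 of the 6 members with at least 100 UMIs were lower in the FLASH library, against 46.8% of genes, and the median over all 10 was -0.26. Among the 1265 FLASH and 977 standard cells with 2000 to 4000 UMIs 3 of 9 were lower, against 54.3% of genes, and the median was 0.15. Fos there had 203 and 149 CPM (0.44), and Jund had 841 and 664 CPM (0.34). Among the 4238 FLASH and 3052 standard cells with 4000 to 8000 UMIs all 10 were lower, against 51.4% of genes (median -0.29). Among the 1505 FLASH and 1670 standard cells above 8000 UMIs 9 of 10 were lower, against 46% of genes (median -0.21).

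The makeup of these depth ranges differed between libraries. Differentiating cells, in which the median of the 10 genes was higher, made up 82.8% of FLASH and 86.8% of standard cells under 2000 UMIs. They made up 65.9% and 64.5% of those with 2000 to 4000. With 4000 to 8000 UMIs they made up 37.7% of FLASH and 46.7% of standard cells, and above 8000 UMIs 9.37% and 12.9%. Cells in S, G2 and M phase made up 25.4% of FLASH and 18.4% of standard cells with 4000 to 8000 UMIs, and 78.8% and 68.0% of those above. The part of this makeup in the ratios of each range was not tested.

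**Figure D4:**
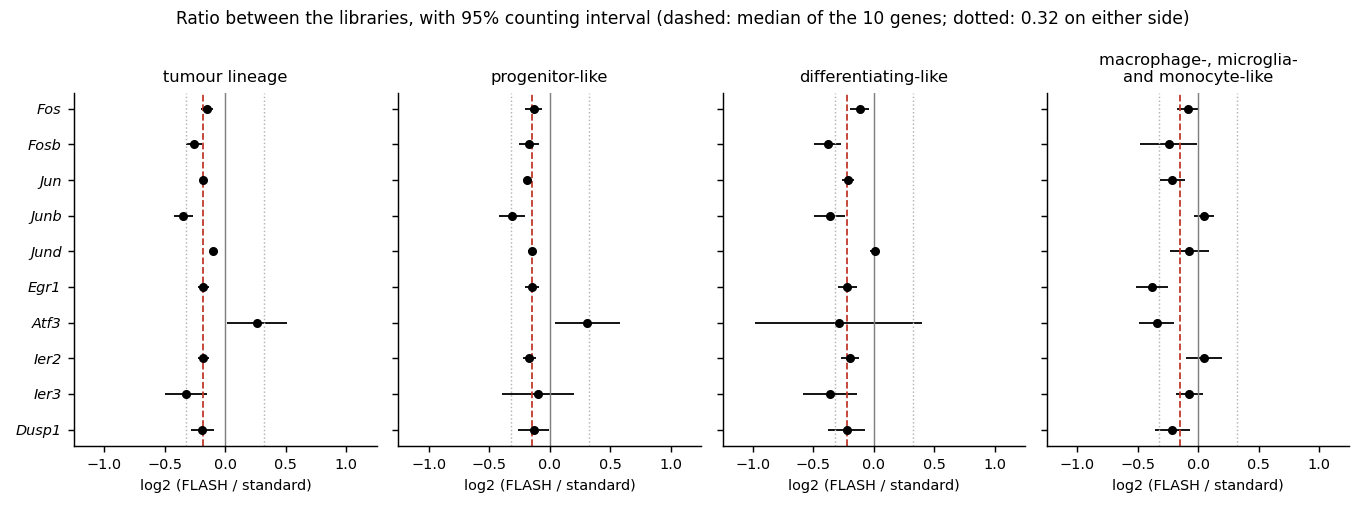
Log2 ratio of FLASH over standard for each gene in 4 cell classes, with 95% counting intervals, the median of the 10 genes dashed and 0.32 on either side dotted. Most points lie left of 0 in the tumour classes, Atf3 lies right of 0 in the tumour lineage and left of it in the myeloid cells.

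Myeloid cells had 8 of 10 genes below 0 (49.8% of genes), with a median of -0.15. Of these, 2 were past 0.32 lower, Egr1 with 464 CPM in FLASH and 604 CPM in standard cells (-0.38 [-0.52, -0.25]) and Atf3 with 424 and 539 CPM (-0.34 [-0.49, -0.20]), against 9.57% of genes. The mix of myeloid cells differed, with 44 and 21 monocyte-like cells and 45 and 60 microglia-like cells in the FLASH and standard libraries. The Egr1 ratio was -0.39 [-0.62, -0.17] within microglia-like cells, -0.14 [-0.32, 0.04] within macrophage-like cells and -0.72 [-1.55, 0.12] within monocyte-like cells, where it rests on 27 FLASH and 26 standard UMIs. Of the 3 intervals that of the microglia-like cells alone lay below 0.

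The oligodendrocyte lineage went against this, with 3 of the 7 members that had at least 100 UMIs past 0.32 higher after FLASH (14% of genes). Egr1 had 344 CPM in FLASH and 173 CPM in standard cells (0.99 [0.71, 1.28]), Ier2 had 211 and 101 CPM (1.05 [0.69, 1.43]), and Junb had 239 and 173 CPM (0.46 [0.17, 0.77]). Precursor-like cells, in which these genes were high, made up 79 of 174 FLASH and 37 of 122 standard cells. With the sub-clusters held to the same mix the Egr1 ratio was 0.29, the Ier2 ratio 0.42 and the Junb ratio -0.09. Without the sub-cluster led by Cre and Cenpf, a choice made after seeing the data, the Egr1 ratio was 0.98, the Ier2 ratio 1.07 and the Junb ratio 0.54.

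Lists of related genes stood closer to 0, though the other immediate early genes also leaned lower. For all lists the share of all genes below 0 in the tumour lineage was 48.5%. Of 40 other immediate early genes, 31 had at least 100 UMIs in the tumour lineage, 23 of them below 0 and 8 above, with a median of -0.10. Past 0.32 lower were 2, against 2.73% of genes, and higher were 3, against 2.07%. Among them were Cyr61, a secreted matrix protein, at 2.45 and 3.41 CPM (-0.48) and Cebpb, a leucine zipper factor, at 6.15 and 4.78 CPM (0.36). Klf2, a zinc finger factor, had 82 FLASH and 43 standard UMIs (0.74). Of 24 upstream kinases and factors 23 were measured, 12 below and 11 above 0, with a median of -0.0063, and the largest ratios were those of the kinases Map2k1 (-0.19), Rps6ka5 (0.18) and Mapk9 (-0.15). Of 9 AP-1 partners 6 were measured, 3 in each direction, with Jdp2 at 6.79 and 5.36 CPM (0.34), Maf at -0.25 and Atf7 at -0.21. Of 12 heat shock genes 9 were measured, 4 below and 5 above 0, with a median of 0.0035, with Hspa5 at -0.13 and Hsph1 at -0.09, and with Hspa8, a constitutive chaperone, at 1588 and 1751 CPM (-0.14).

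Across 27 clusters of at least 50 cells, genes whose levels were among the most like the mean of the 10 were Rsrp1 (r = 0.92), Pdcd6ip, Neat1, Ppp1r15a, Gadd45b, Nfkbia, Tfe3, Klf6 and Neu1 (r = 0.90). Clusters share libraries and depth, so these values are descriptions. Of the 10 genes themselves Fos and Dusp1 were closest to the mean, at 0.95 each, and Jund was farthest, at 0.11. Each of the 10 is part of that mean, which raises its own value, so these values are not comparable with those of the other genes.

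A small unnamed cluster had the highest Jun of all clusters, although immediate early genes took no part in the clustering. Its 42 FLASH and 12 standard cells had among their leading genes Cdkn1a, Bbc3 and Plk2, known targets of p53, and Dusp8, a phosphatase of JNK. Jun had 8955 and 8962 CPM there in the FLASH and standard libraries, log2 ratios over the tumour lineage of 3.89 and 3.71. Jund had 4604 and 3748 CPM, Egr1 had 1957 and 2413 CPM and Ier2 had 1521 and 689 CPM. Fosb did not stand out, at 98.6 and 86.2 CPM, and Ier3 had 1 and 0 UMIs. Fos had 507 and 560.1 CPM and Junb 338 and 215 CPM, both below their myeloid levels. Atf3 had 183 and 172 CPM, from 13 FLASH and 4 standard UMIs, against 7.23 and 6.04 CPM in the tumour lineage. 8 of the 10 genes were at least 2-fold above the tumour lineage in both libraries, against 28.6% of genes, and relative to the median gene 7 were, against 21.4%. Without the cell with most UMIs of each gene 7 of the 10 passed. The gene that no longer passed was Junb, which then had 1 standard UMI (69.2 CPM, against 66.6 CPM in the standard tumour lineage). The cells were shallow, with medians of 1420.5 and 1161.5 UMIs per cell.

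The Jun level did not hang on 1 cell. Without the cell with most Jun UMIs it was 9186 and 10167 CPM, although that cell held 29.3% of the Jun UMIs of the standard library. Clustered library by library, the same 42 and 12 cells formed a cluster of exactly that size in each. The cluster was 0.442% of FLASH cells [0.319, 0.597] and 0.152% of standard cells [0.0786, 0.266], and with 1 library per group that difference has no replicate check.

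**Figure D5:**
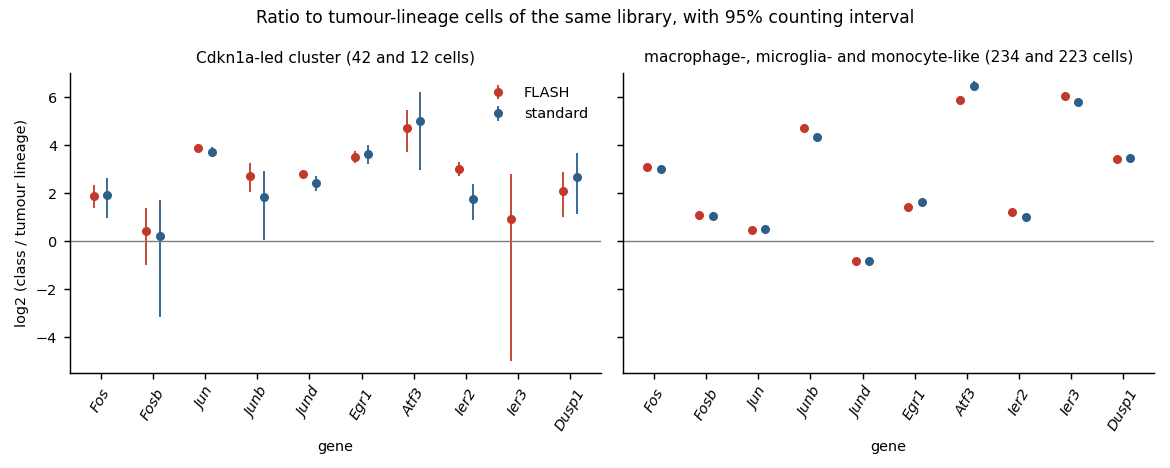
Log2 ratio of the Cdkn1a-led cluster (left) and of macrophage-, microglia- and monocyte-like cells (right) over tumour-lineage cells of the same library, with 95% counting intervals, FLASH left of standard for each gene. Atf3, Jun and Egr1 have the highest ratios on the left, Ier3, Atf3 and Junb on the right, and the standard Ier3 point of the Cdkn1a-led cluster is not drawn because it had 0 UMIs.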

How the data were processed

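Single cells of both tumours were profiled with the 10x kit of version 3. The authors deposited filtered matrices of UMI counts per gene and barcode, as whole numbers. Cell Ranger 6.1.2 is named in the headers of these files, and the build is mm10, per the submitters' processing notes. The matrices hold 14269 barcodes and 63178900 UMIs (FLASH) and 12867 barcodes and 55532202 UMIs (standard). Barcodes with at least 500 genes and at most 10% mitochondrial UMIs were kept. Scrublet's automatic call marked 0 barcodes in either library, so the highest scores were removed at 0.8% per 1000 cells, 860 FLASH and 573 standard barcodes. Cells were clustered with scanpy 1.11.5 and leidenalg 0.10.2 (2000 variable genes, 30 components, 15 neighbours, resolution 1.0) without mitochondrial, ribosomal, sex-linked, immediate early and heat shock genes. Clusters were named from fixed markers, with cutoffs set after earlier results were seen, and those that failed stayed unnamed (1216 FLASH cells, 1057 standard cells).

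UMIs were summed per library and class and given as counts per 1000000 UMIs (CPM) with exact Poisson intervals. Ratios had 0.5 added to each sum and exact conditional binomial intervals, and shares had Clopper-Pearson intervals, all at 95%. The upper limit of a 0 is that of its exact interval. With 1 library per group no test was made. Counts of genes past 0.32 (log2) between libraries, or 2-fold between classes in both libraries, were taken over genes with at least 100 UMIs. All 10 members are named, with the 3 largest ratios of each list and the 10 genes nearest by correlation, of which 1 is not reported here. Genes named as leading a cluster were read from its ranking. The members and lists were chosen with earlier results of these data known. GENCODE M21 matched 30934 of the 31055 features. Steps across many genes were tested on simulated data. Alternatives changed the filters, doublets, clustering, depth, mix of clusters, scaling and weight of cells. Python 3.11.15, numpy 2.4.6, scipy 1.17.1, pandas 2.3.3, igraph 0.11.9 and matplotlib 3.10.9 were used.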

Additional observations from a re-analysis of the deposited data

Results flagged for a closer look

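The FLASH over standard ratio of 3 genes was higher in the oligodendrocyte lineage than in the tumour lineage, by 0.81 on the log2 scale for Junb, 1.17 for Egr1 and 1.24 for Ier2. Egr1 also stood 1.37 higher there than in myeloid cells. For Atf3 the myeloid ratio minus the tumour-lineage ratio was -0.61, with -0.34 in myeloid and 0.26 in tumour-lineage cells. In the tumour lineage 164 FLASH and 89 standard UMIs of Atf3 came from the S phase cluster led by histone genes. These differences between cell classes rest on 1 library per group and were not tested. The differing mix of oligodendrocyte sub-clusters moved with the first 3.

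Barcodes above 10% mitochondrial UMIs, which enter no comparison, had more Fosb and Egr1 than the barcodes kept by the filter, with mitochondrial UMIs left out of the total. Fosb had 181 CPM in the FLASH and 260.2 CPM in the standard library there, against 88.0 and 103 CPM in the FLASH and standard barcodes under that limit. Egr1 had 239 and 356 CPM, against 194 and 218 CPM. The other 8 genes were lower in these barcodes in both libraries, and the share of all genes doing so was not counted. These barcodes had medians of 1500 and 1561 UMIs, against 5329.5 and 5700 in the kept ones. Kept tumour cells under 2000 UMIs had 106 and 164 CPM of Fosb and 206 and 261 CPM of Egr1, over all UMIs. The part of depth in these levels was not tested.

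Jun in the unnamed cluster led by Cdkn1a, a set of cells outside the named classes, had 8955 CPM in the FLASH and 8962 CPM in the standard library.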

How the results depend on the processing

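The median ratio of the 10 genes stayed below 0 under all 17 alternatives in the tumour lineage (-0.20 to -0.15), in progenitor-like cells (-0.18 to -0.13) and in differentiating cells (-0.24 to -0.12), and under all 14 in myeloid cells. Some of these alternatives (depth mix, and leaving out shallow clusters or cluster 18) were chosen after seeing the data. The myeloid median was -0.34 with each library clustered by itself and -0.026 as a mean of each cell's CPM. Myeloid over tumour, it was 2.14 in the FLASH and 2.22 in the standard library without the 5 cells richest in each gene, 3.05 and 3.10 scaled by the median of ratios, and 2.43 in the standard library clustered by itself. Of 916 values of single genes 802 stayed inside their interval, 113 moved outside it and 1 reversed. A value counted as reversed when its sign changed and its main ratio was at least 0.32 (log2) between libraries or 2-fold between classes. The reversed value was Junb in the oligodendrocyte lineage, at -0.089 with sub-clusters in the same mix. Sign changes of smaller ratios were not counted apart and fall among the values inside or outside their interval. The causes were not tested. Without the minimum of 100 UMIs the genes past 0.32 (log2) either way numbered 6390 in place of 574 in the tumour lineage, 6284 in place of 616 in progenitor-like, 6202 in place of 567 in differentiating and 7691 in place of 748 in myeloid cells. No paired analysis was possible because each group has 1 library and the labels carry no replicate numbers. Depth limits Atf3 and Ier3 in tumour cells most, and small classes throughout.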
